A study of Arabidopsis thaliana with 12 samples.

Results

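Expression and intron retention of 8 Arabidopsis thaliana iron genes were read in seedlings mutant for picln-1 or prmt5-5, each set against wild type (WT). The genes were taken by locus: BHLH38 (AT3G56970), BHLH39 (AT3G56980), BHLH100 (AT2G41240), BHLH101 (AT5G04150), FRO4 (AT5G23980), FRO5 (AT5G23990), FRO6 (AT5G49730) and ORG1 (AT5G53450). The set was chosen by the log2 changes and listed bins of its members in these same tables, so their own values below are a description without a test. All but ORG1 belong to the bHLH or FRO families; ORG1 encodes neither a bHLH factor nor a reductase. Of the 8 loci, 6 appear in at least 1 of 4 deposited tables, which together name 4018 loci; BHLH39 and FRO5 appear in none.

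The groups were picln-1, which affects the snRNP assembly chaperone pICln, prmt5-5, which affects the arginine methyltransferase PRMT5, and WT, with 4 RNA libraries of whole seedlings per genotype. The WT libraries carry the name Col in their titles, and no label gives the background strain of the mutants. All seedlings grew at 22 °C for 10 days in days of 12 h light and 12 h dark, a regime given for 9 days as the treatment. The series' design line mentions cold, which no library label gives. Each mutated gene is represented by 1 allele, and the WT libraries served as control for both. The pICln transcript (AT5G62290) stands in the authors' deposited table of picln-1 with a log2 change of -3.48. PRMT5 (AT4G31120) was not in the gene table of prmt5-5 but had 1 listed bin there. The deposited material is the authors' own lists of changed genes and of changed bins, a bin being an intron, an exon or a piece of an exon that the annotation sets apart. It holds no values per library, no standard errors and no read depth, so no spread between libraries can be shown. The labels do not tell whether a genotype's libraries are separate cultures, and the authors' p-values may thus measure technical spread only. An uncertainty is given below as a standard error implied by the authors' p, the size of the log2 change divided by the normal quantile of its two-sided p, and it is approximate.

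Plants short of iron switch on a set of basic helix-loop-helix (bHLH) transcription factors of subgroup Ib, which are BHLH38, BHLH39, BHLH100 and BHLH101. In roots, BHLH38 and BHLH39 are known to pair with the bHLH factor FIT and to activate FRO2, which reduces ferric iron at the root surface, and IRT1, which carries the reduced iron into the cell. The other FRO genes encode related reductases: FRO4 and FRO5 are known for copper reduction at the root surface, FRO6 sits in the plasma membrane of green tissue, FRO7 in chloroplasts, and FRO3 and FRO8 in mitochondria. ORG1 shares its name with BHLH38 and BHLH39, also called ORG2 and ORG3, because all 3 respond to the Dof transcription factor OBP3.

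The introns that carry the splicing result are shown first, read from the TAIR10.1 reference on the coding strand. Each line starts with 3 exon bases and ends with 3 exon bases, and capitals mark the first stop codon in the reading frame of the upstream exons where the intron holds one. FRO7 intron 6 is included for comparison with FRO6. ORG1 intron 1, listed in both mutants, lies in the 5′ UTR and is shown further on by its 5′ splice site alone.
ORG1 intron 2: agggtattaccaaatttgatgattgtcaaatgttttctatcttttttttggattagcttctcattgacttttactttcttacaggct
ORG1 intron 3: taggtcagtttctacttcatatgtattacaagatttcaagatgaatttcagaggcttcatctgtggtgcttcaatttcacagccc
ORG1 intron 6: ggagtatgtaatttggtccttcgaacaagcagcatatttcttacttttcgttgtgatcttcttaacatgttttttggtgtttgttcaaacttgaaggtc
ORG1 intron 7: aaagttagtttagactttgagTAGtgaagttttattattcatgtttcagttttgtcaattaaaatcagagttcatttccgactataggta
FRO6 intron 5: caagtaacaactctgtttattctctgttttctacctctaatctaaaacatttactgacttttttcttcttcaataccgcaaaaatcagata
FRO6 intron 6: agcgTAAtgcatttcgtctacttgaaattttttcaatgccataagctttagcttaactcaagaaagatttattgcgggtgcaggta
FRO7 intron 6: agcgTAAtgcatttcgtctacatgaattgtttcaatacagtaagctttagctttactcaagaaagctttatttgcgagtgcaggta
BHLH101 intron 2: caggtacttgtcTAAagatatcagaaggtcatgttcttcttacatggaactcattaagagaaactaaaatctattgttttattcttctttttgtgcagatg

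ORG1 held the most listed bins of the 8 genes. ORG1 lies on the plus strand of chromosome 5 (TAIR10.1, chr5:21688763-21692480) and has 13 introns in the transcript with the longest coding sequence. Of these, 4 introns (1, 3, 6 and 7) were listed as more retained in picln-1 and 5 (1, 2, 3, 6 and 7) in prmt5-5. Over all bins tested, 0.479% were listed in picln-1 (0.428% higher, 0.0504% lower) and 2.88% in prmt5-5 (2.82% higher, 0.0601% lower). Those bins include exons, and the share among introns alone is not known. Introns 4, 5 and 8 to 13 were listed in neither mutant. ORG1 itself was in neither gene table, so no change of its total transcript level past the authors' limits was listed.

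By the authors' deposited table, intron 7 (chr5:21690428-21690511, coding sequence) was retained in 11.6% of junction reads in picln-1, 13.0% in prmt5-5 and 1.41% in WT. Its log2 usage change against WT, also from the authors' deposited table, was 2.73 in picln-1 (implied SE 0.177, authors' adjusted p = 7.47e-49) and 2.94 in prmt5-5 (implied SE 0.177, authors' adjusted p = 1.92e-58). By p it ranked 2 of 112984 bins tested in picln-1 and 35 of 118209 in prmt5-5.

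For intron 6 (chr5:21690248-21690340, coding sequence) the authors' deposited table gives a retained share of 12.2% in picln-1, 15.7% in prmt5-5 and 2.19% in WT. The usage change there, on the log2 scale of the authors' deposited table, was 2.24 in picln-1 (implied SE 0.214) and 2.83 in prmt5-5 (implied SE 0.206). The neighbouring introns 6 and 7 thus lay between 11.6% and 15.7% in the mutants and at most at 2.19% in WT.

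Introns 1 and 3 were already retained more often in WT. Intron 1 (chr5:21688942-21689189), in the 5′ UTR, stood at 20.8% in picln-1, 17.8% in prmt5-5 and 8.23% in WT, from the authors' deposited table. For intron 3 (chr5:21689632-21689710, coding sequence) the authors' deposited table gives 23.2% in picln-1, 15.7% in prmt5-5 and 7.76% in WT. For picln-1 the authors' deposited table holds log2 usage changes of 1.56 (implied SE 0.160) for intron 1 and 1.31 (implied SE 0.113) for intron 3. For prmt5-5 the authors' deposited table holds 1.66 (implied SE 0.158) for intron 1 and 0.83 (implied SE 0.121) for intron 3. The retained share of introns 1 and 3 was higher in picln-1 than in prmt5-5, and that of introns 6 and 7 was higher in prmt5-5. The mutants were not tested against each other, and for intron 1 the log2 usage change had the opposite order to the retained share.

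Intron 2 (chr5:21689507-21689587, coding sequence) was listed in prmt5-5 alone. Its retained share in the authors' deposited table was 2.48% in picln-1, 7.65% in prmt5-5 and 0.462% in WT. With 3.56 in prmt5-5 in the authors' deposited table, it had the largest log2 usage change of any listed bin of the 8 genes (implied SE 0.239, authors' adjusted p = 1.25e-46). In picln-1 the share lay 2.02 percentage points above WT, below the 5 points that the authors required for a bin to be listed, so its absence from that table says nothing about its p.

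**Figure D1:**
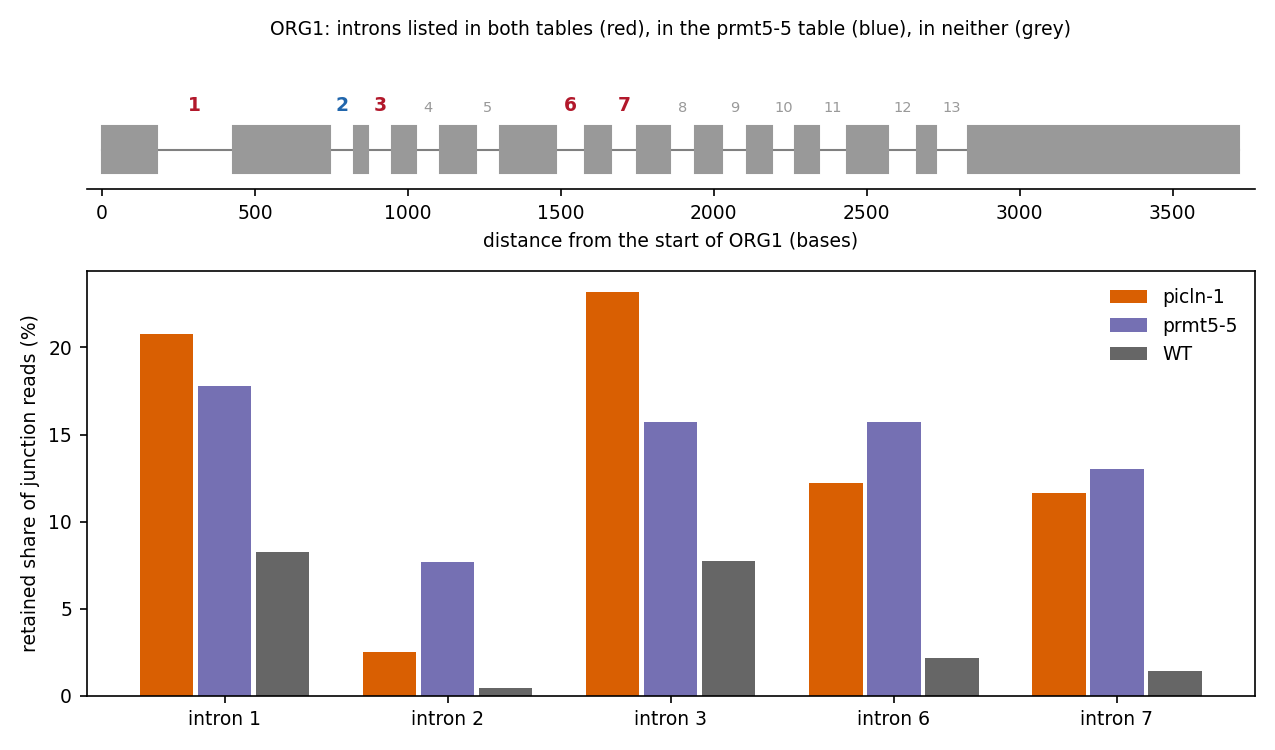
ORG1 gene model (top; boxes are exons, numbers are introns, horizontal axis in bases from the gene start) and the retained share of junction reads in percent for the 5 listed introns (bottom; 1 bar per genotype, the authors' value for that genotype, with no error available). In each of the 5 introns both mutants lie above WT, and intron 3 reaches 23.2% in picln-1.

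Few loci had as many listed bins as ORG1. In picln-1, 4 of the 470 loci with a listed bin had 4 or more, ORG1 among them, and 420 had 1. In prmt5-5, 21 of 2601 loci had at least 5 listed bins, ORG1 included, and 2003 had 1. A gene with more introns and more reads can have more listed bins, and reads per gene are unknown here.

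What retention would add to the ORG1 reading frame differed between its introns. Introns 2 (81 bases) and 6 (93 bases) are multiples of 3 in length and hold no stop codon in the reading frame of the upstream exons. Intron 3 (79 bases) holds no such stop either but shifts the frame of what follows. Intron 7 (84 bases) holds a TAG at its base 19. All 8 unlisted introns of ORG1, each in coding sequence, hold a stop in frame. FRO6 intron 5 (85 bases), listed in prmt5-5, has no stop in frame but shifts the frame of what follows. FRO6 intron 6 opens with a TAA at its base 2, and the 6 unlisted introns each hold a stop. FRO3 was like FRO6, with no stop in its listed intron 6, a TAA at base 2 of its listed intron 3 and a stop in each unlisted intron. FRO2, FRO7 and FRO8 were not: the listed FRO2 intron 3, FRO7 intron 6 and FRO8 intron 3 hold a TAA at base 2. Each unlisted FRO2 intron holds a stop in frame. The unlisted FRO7 intron 3 and FRO8 introns 1 and 5 hold no stop in frame. Over ORG1, FRO6 and BHLH101, the member genes with a listed intron, 4 of 7 listed coding introns (57.1%) and 0 of 15 unlisted ones had no stop in frame. The split does not extend to all members. In genes without a listed intron, BHLH38 intron 1 and FRO5 intron 1, both unlisted and coding, hold no stop in frame. Over all loci with a listed gain of retention in either mutant, 270 of 3212 listed coding introns (8.41%) and 2172 of 20350 unlisted ones (10.7%) had none. The member introns are few and were chosen as listed, and no test was made of this difference.

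The 5′ splice site, the junction that the U1 snRNP reads, was scored in bits against the 120297 annotated introns, over 3 exon bases (lower case below) and 6 intron bases (capitals). These windows are shown for the listed ORG1 and FRO6 introns, followed by the site of FRO7 intron 6.
ORG1 intron 1: ttgGTAAGC
ORG1 intron 2: aggGTATTA
ORG1 intron 3: tagGTCAGT
ORG1 intron 6: ggaGTATGT
ORG1 intron 7: aaaGTTAGT
FRO6 intron 5: caaGTAACA
FRO6 intron 6: agcGTAATG
FRO7 intron 6: agcGTAATG

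The median of all annotated introns was 7.09 bits. Scores of the 5 listed ORG1 introns ran from 4.03 bits (intron 6) to 7.03 bits (intron 7), with a median of 6.78. The 8 unlisted ORG1 introns ran from 4.04 to 8.86 bits with a median of 8.44, so the groups overlap. In FRO6 the listed introns 5 (5.32 bits) and 6 (1.07 bits) had the lowest scores of its 8 introns, and the site of intron 6 lies at percentile 1.46 of all annotated introns. BHLH101 intron 2 scored 8.58 bits, above that median. Of the 8 listed member introns 7 scored below the median of all introns (87.5%), against 81.2% of the 3312 listed introns over all loci, so the members were near that share. Among unlisted introns the shares below the median were 53.3% in the same 3 member genes and 48.7% over all loci with a listed intron. These shares pool both mutants. Over all loci, 64.5% of introns listed in picln-1 and 51.1% of unlisted ones scored below the median. For prmt5-5 the shares were 82.9% and 48.9%. Of the listed member introns, 4 of 5 in picln-1 and 7 of 7 in prmt5-5 scored below it, and no test was made.

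**Figure D2:**
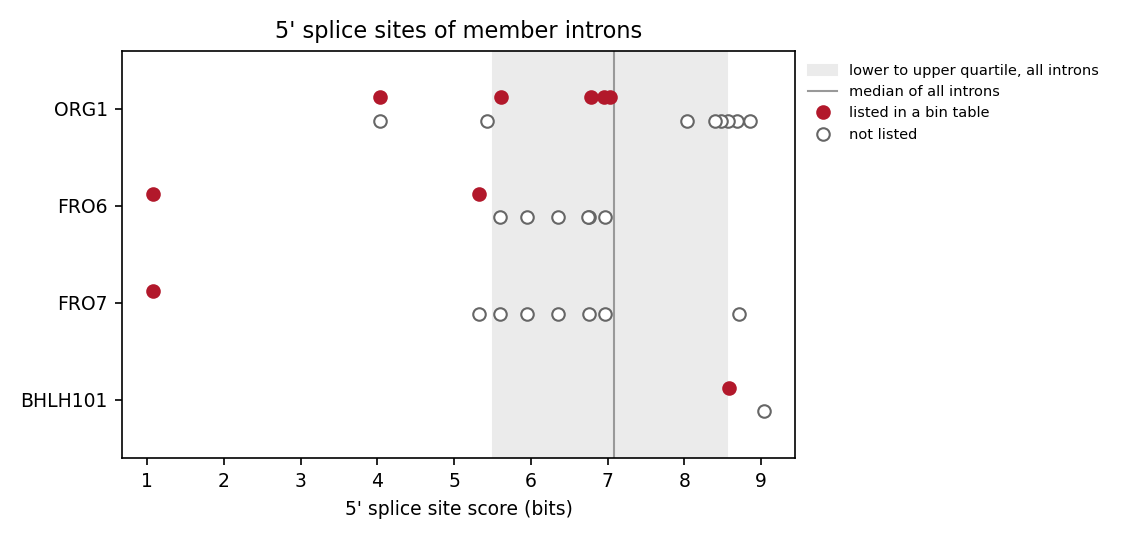
Score of the 5′ splice site in bits (horizontal axis) for every intron of ORG1, FRO6, FRO7 and BHLH101, with introns listed in a bin table filled and unlisted ones open. The grey band runs from the lower to the upper quartile of all annotated introns and the line marks their median, 7.09 bits; FRO6 intron 6 and FRO7 intron 6 both lie at 1.07 bits.

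FRO6, the reductase of green tissue, was the second gene with several listed introns, and these were listed in prmt5-5 only. FRO6 is on the minus strand (TAIR10.1, chr5:20201037-20204595) and has 8 introns, all in coding sequence. As the authors' deposited table gives it, intron 6 (chr5:20202513-20202592) had a retained share of 31.3% in prmt5-5, 10.9% in picln-1 and 3.45% in WT. For intron 5 (chr5:20202873-20202957) the shares in the authors' deposited table were 29.7% in prmt5-5, 10.3% in picln-1 and 8.57% in WT. The log2 usage changes in prmt5-5, from the authors' deposited table, were 2.15 for intron 6 (implied SE 0.599, authors' adjusted p = 0.00896) and 2.5 for intron 5 (implied SE 0.746, authors' adjusted p = 0.0192). Their implied errors are wider than those of every listed ORG1 intron. In picln-1 the share of intron 6 also lay above WT, by more than the authors' limit of 5 points, but that bin was not listed, so it was above their limit on the adjusted p or was not tested.

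FRO7 lies 706 bases from FRO6 on the same strand and had a larger retained share at the same intron. The FRO6 and FRO7 proteins are identical at 92.5% of 737 aligned residues and their coding bases at 93.8%, so reads of this pair may have been split or lost between them. From the authors' deposited table, intron 6 of FRO7 (chr5:20206706-20206785) had a retained share of 67.5% in prmt5-5, 18.9% in picln-1 and 4.76% in WT. Both introns sit after the same aligned residue in the same codon phase, have 80 bases each, match at 89.9% of 79 aligned bases and share the window agcGTAATG. All 8 FRO genes have an intron at this place, and it was listed in FRO6 and FRO7 only. The same intron in the other 6 genes scored between 4.19 bits (FRO8) and 8.59 bits (FRO5). The place of FRO6 intron 5 is likewise shared by all 8 genes and was listed in FRO6 and in FRO3. FRO7 intron 5 has the FRO6 window caaGTAACA and was not listed.

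Across the FRO family, 7 of 59 introns in 5 of 8 genes were listed as more retained in prmt5-5, and 0 in picln-1. Over all bins tested, exons included, 2.82% were listed as higher in prmt5-5 and 0.428% in picln-1. Most listed bins were introns (3232 of 3406 in prmt5-5, 485 of 541 in picln-1). These shares thus understate the share among introns alone, which is not known. Loci with a listed bin made up 15.5% of the genes tested for expression in prmt5-5 and 2.85% in picln-1. At the picln-1 share, 0 of 59 is near the background, and the FRO genes were looked at with their listed introns known. The largest share in the authors' deposited table was that of FRO8 intron 3, with 80.8% in prmt5-5, 20% in picln-1 and 24.3% in WT. The authors' deposited table puts FRO2 intron 3 at 22.3% in prmt5-5, 10.4% in picln-1 and 3.70% in WT. FRO3 introns 3 and 6 stand in the authors' deposited table at 36.0% and 10.7% in prmt5-5, 23.7% and 6.75% in picln-1, and 21.2% and 5.14% in WT. No intron of FRO4, FRO5 or FRO1 was listed, and whether their reads sufficed for a test is unknown.

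**Figure D3:**
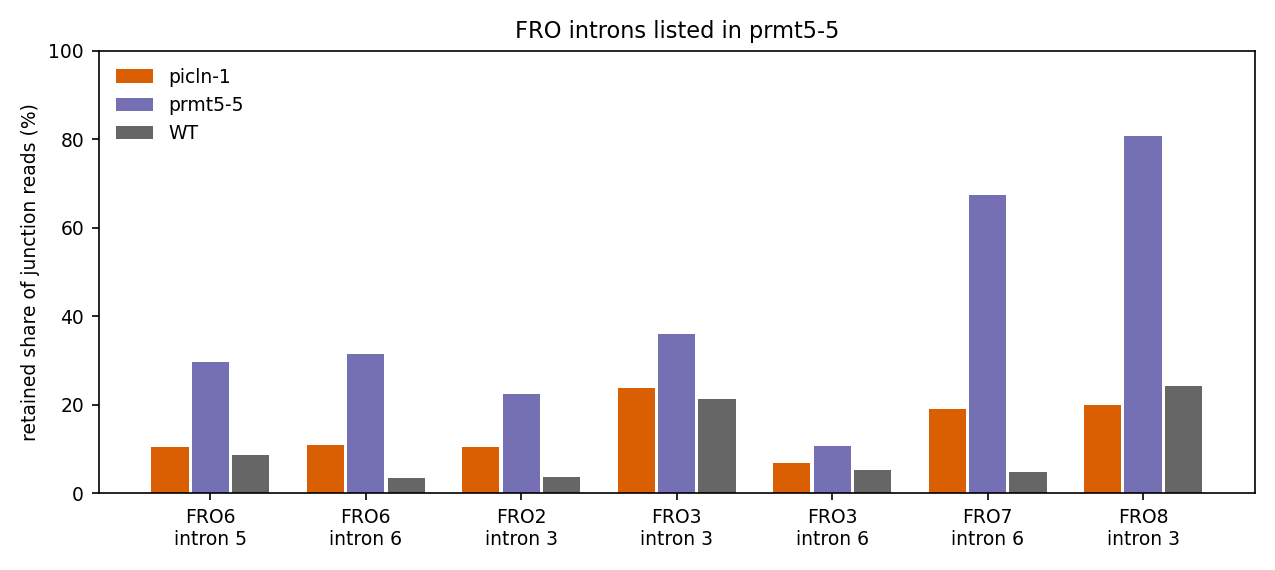
Retained share of junction reads in percent (vertical axis) for the 7 FRO introns listed in prmt5-5, with 1 bar per genotype (the authors' value for that genotype, no error available). The prmt5-5 bar is the highest in each, from 10.7% in FRO3 intron 6 to 80.8% in FRO8 intron 3.

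Turning to expression, 4 of the 8 genes were listed in picln-1, 3 higher and 1 lower, and 1 in prmt5-5, which was lower. Of all genes tested, 1.69% were listed in picln-1 (0.698% higher, 0.996% lower) and 9.14% in prmt5-5 (4.99% higher, 4.15% lower), and since the 8 genes were chosen with these lists in view, nothing is read from the difference. No gene of the 8 was in both gene tables.

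The transcription factor genes BHLH101 and BHLH100 were higher in picln-1. The log2 change of BHLH101 in the authors' deposited table was 0.78, a 1.72-fold level (implied SE 0.109, authors' adjusted p = 1.09e-10, rank 111 of 16473 genes by p). For BHLH100 the authors' deposited table gives a log2 change of 0.74, or 1.67-fold (implied SE 0.138, authors' adjusted p = 3.73e-06). Both sizes are near the median listed rise of that table, 0.74 on the log2 scale. BHLH38 was listed as lower in prmt5-5, where the authors' deposited table gives a log2 change of -0.68, or 1.60-fold lower (implied SE 0.148, authors' adjusted p = 2.91e-05). BHLH38 (chr3:21084035-21085245) and BHLH39 (chr3:21086390-21087710) are neighbours on the minus strand, 1144 bases apart, and their coding bases match at 84.8%. Their proteins are identical at 80.6% of aligned residues, while BHLH100 (chr2:17198037-17199454) matches them at 61.8% and 66.0%. BHLH101 (chr5:1138410-1139633) is the least alike of the 4, with 37.2% to 43.9%. Reads of that pair may have been split, which makes the value of BHLH38 and the absence of BHLH39 less certain. The 3′ end of BHLH38 also overlaps PIP5K4 on the other strand by 386 bases and that of BHLH101 overlaps GLU1 by 79 bases in the reference annotation. The authors' own gene coordinates start BHLH101 at base 1138559, which leaves out its overlap with GLU1. Whether the authors' coordinates of BHLH38 keep its overlap was not checked, and whether the counting used strand is not given. Reads of the BHLH38 overlap, if it was counted, cannot be told apart.

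BHLH101 was also the single bHLH gene with a listed intron. The authors' deposited table has its intron 2 (chr5:1138631-1138725, coding sequence) retained in 8.76% of junction reads in picln-1, 4.65% in prmt5-5 and 3.70% in WT. For picln-1 the log2 usage change in the authors' deposited table was 1.39 (implied SE 0.384, authors' adjusted p = 0.0367). The change of 5.05 percentage points lies just past the authors' limit of 5.

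Among the reductases, FRO4 and FRO6 moved in opposite directions in picln-1. By the authors' deposited table, FRO4 fell by 1.13 on the log2 scale, to a 2.19-fold lower level (implied SE 0.199, authors' adjusted p = 9.25e-07). FRO6 has a log2 change of 0.65 in the authors' deposited table, 1.57-fold higher (implied SE 0.0952, authors' adjusted p = 1.33e-09). FRO4 (chr5:8097978-8101330) has a near-identical neighbour in FRO5 (chr5:8105461-8108642), 4130 bases away, with 92.6% of coding bases alike, and FRO6 has one in FRO7, so all of these values are uncertain to the extent that reads were shared. FRO6 was listed for expression in picln-1 and for introns in prmt5-5, and in neither mutant for both.

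**Figure D4:**
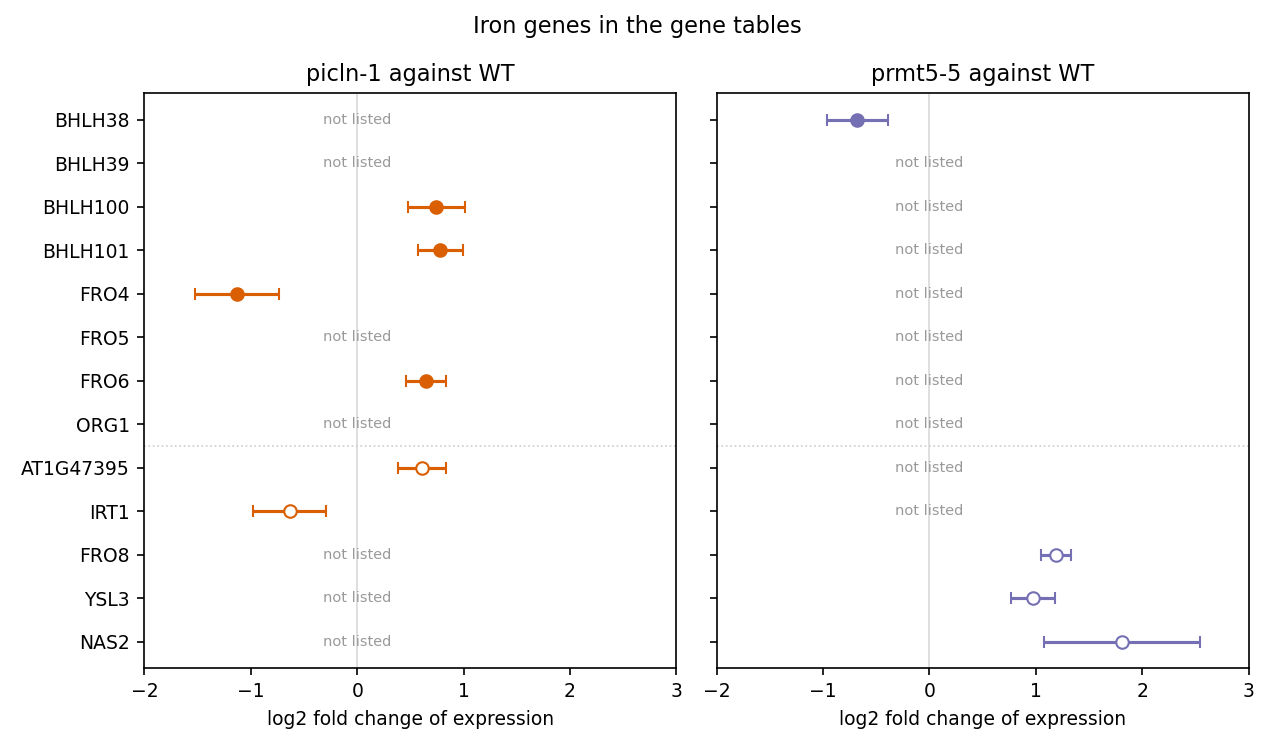
Log2 fold change of expression of mutant over WT (horizontal axis) for the 8 genes (filled) and for the 5 other iron genes in either gene table (open). Bars are approximate 95% intervals from the authors' p-values, "not listed" marks genes outside the authors' limits or not tested; BHLH100, BHLH101 and FRO6 lie above 0 and FRO4 below in picln-1, and BHLH38 lies below 0 in prmt5-5.

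The rest of the iron pathway was read through a list of 55 other genes, in groups by role. In picln-1, 2 of the 55 (3.64%) were listed for expression, 1 higher and 1 lower. IRT1, the root iron importer, fell by 0.63 on the log2 scale of the authors' deposited table (implied SE 0.175, authors' adjusted p = 0.00480). AT1G47395, which the reference leaves unnamed, stands in the list as the iron regulator IMA2. Its log2 change in the authors' deposited table was 0.61 (implied SE 0.116, authors' adjusted p = 8.38e-06). Besides AT1G47395, FIT, PYE, BTS and the other 12 regulators gave no listed expression change in picln-1. Nor did the 5 other FRO genes, the 5 coumarin genes, the 12 chelation and transport genes or the 13 storage genes.

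In prmt5-5, 3 of the 55 (5.45%) were listed, all higher. For NAS2, a synthase of the metal chelator nicotianamine, the authors' deposited table gives a log2 change of 1.81 (implied SE 0.372, authors' adjusted p = 9.12e-06). FRO8 had a log2 change of 1.19 (implied SE 0.0721) and YSL3, a transporter of nicotianamine-bound metals, one of 0.97 (implied SE 0.104), both in the authors' deposited table. These shares compare with 1.69% of all genes tested in picln-1 and 9.14% in prmt5-5. How many of the 55 were tested is not known, so the shares have unlike denominators.

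Listed introns were found in 2 of the 55 other genes in picln-1 (3.64%) and in 9 in prmt5-5 (16.4%), in every case more retained. Loci with a listed bin made up 2.85% of the genes tested for expression in picln-1 and 15.5% in prmt5-5, so both shares are near the background. The comparison is rough, since the 55 include genes that may not have been tested. PYE, a bHLH repressor of iron genes, was the one gene of the 55 listed in both: its intron 3 (chr3:17568094-17568183) stands in the authors' deposited table at 11.5% in picln-1, 10.9% in prmt5-5 and 3.20% in WT. For OPT3, an iron transporter of the phloem, the authors' deposited table puts intron 3 at 8.35% in picln-1, 4.12% in prmt5-5 and 2.70% in WT. In prmt5-5 the authors' deposited table also holds ZIF1 intron 2, with 29.9% in prmt5-5, 1.16% in picln-1 and 0.791% in WT. YSL3 intron 3 is given in the authors' deposited table as 48.3% in prmt5-5, 8.65% in picln-1 and 5.56% in WT. The second listed YSL3 intron, intron 7, is there at 15.5% in prmt5-5, 7.92% in picln-1 and 5.33% in WT, from the same authors' deposited table. The ubiquitin ligase gene BTS, a brake on the iron response, has intron 12 in the authors' deposited table at 12.3% in prmt5-5, 7.98% in picln-1 and 4.39% in WT. ABCG37, an exporter of coumarins, had introns 4 and 17 at 8.89% and 15.5% in prmt5-5 and at most 1.59% in picln-1 and 0.741% in WT, again from the authors' deposited table. YSL3 and FRO8 were in the gene table and the bin table of prmt5-5.

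The upstream sequences of BHLH100 and BHLH101, which were higher in picln-1, and of BHLH38 are shown because bHLH proteins are known to bind E-boxes. Each run is the 250 bases before the annotated gene start, and capitals mark the E-box CANNTG, which reads the same way on both strands.
BHLH100 upstream: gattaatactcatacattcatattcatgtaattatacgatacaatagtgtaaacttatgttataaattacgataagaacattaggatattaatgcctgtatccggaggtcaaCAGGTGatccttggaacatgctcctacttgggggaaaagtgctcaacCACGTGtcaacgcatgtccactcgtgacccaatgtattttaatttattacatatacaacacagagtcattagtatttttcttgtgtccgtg
BHLH101 upstream: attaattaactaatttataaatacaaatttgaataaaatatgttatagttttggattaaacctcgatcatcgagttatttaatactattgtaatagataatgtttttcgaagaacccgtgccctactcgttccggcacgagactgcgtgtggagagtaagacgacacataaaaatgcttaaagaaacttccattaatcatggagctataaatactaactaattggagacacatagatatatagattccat
BHLH38 upstream: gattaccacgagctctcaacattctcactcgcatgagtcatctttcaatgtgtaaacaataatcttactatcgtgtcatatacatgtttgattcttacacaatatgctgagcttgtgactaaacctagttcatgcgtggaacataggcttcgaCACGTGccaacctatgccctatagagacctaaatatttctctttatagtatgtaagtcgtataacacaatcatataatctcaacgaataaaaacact

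BHLH100 (minus strand, chr2:17199455-17199704) holds 2 E-boxes, of which the one at 91 bases before the start is the G-box CACGTG, a special case of the E-box. BHLH38 (minus strand, chr3:21085246-21085495) holds 1, also a G-box, 97 bases before the start. The window of BHLH101 (minus strand, chr5:1139634-1139883) holds neither motif. Of the 8 genes 5 hold an E-box in this window and 3 a G-box (BHLH38, BHLH100 and FRO6), against 55.3% and 6.49% of 27443 protein-coding genes. These matches are letters in a window and were not tied to the expression values.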

How the data were processed

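Polyadenylated RNA of 12 libraries, 4 per genotype, was aligned with TopHat to TAIR10, per the submitters' processing notes. No source used here names the program for counting and testing. The authors deposited log2 fold changes of mutant over WT; no base is stated, and base 2 is taken because the smallest listed gene change is then 1.49-fold or 1.50-fold. The p-values and adjusted p-values are the authors' own, made by comparing each mutant with WT, per the file headers. The authors also deposited, per genotype and bin, a fraction headed PIR/PSI, read here as the share of junction reads that retain an intron and given as a percentage. Per the deposited description, the limits were 0.05 on the adjusted p of genes, and for bins 0.15 on the adjusted p together with 0.05 on the change of the fraction. No listed gene changed by less than 0.58 (log2). Depth is unknown. A locus outside the lists may be unchanged, may have changed by less or may not have been tested.

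The planned count tests need values per library and were not run. The number of features tested was recovered by dividing adjusted by raw p, a step that gave the true number in 4 of 4 simulated tables. It came to 16473 genes and 112984 bins in picln-1, and 16747 genes and 118209 bins in prmt5-5. Ranks by p come from the same ratio. Introns were numbered along the transcript with the longest coding sequence in the RefSeq annotation of TAIR10.1. An annotated intron of TAIR10.1 had the same ends as 99.4% of listed intron bins in picln-1 and 99.6% in prmt5-5. Sequences are RefSeq's. Proteins were translated from the annotated coding sequence and aligned globally (BLOSUM62), and base identities were taken over the aligned codons. Equivalent FRO introns follow the same aligned residue in the same phase. Python 3.11.15, numpy 2.4.6, pandas 2.3.3, scipy 1.17.1, Biopython 1.88 and matplotlib 3.10.9 were used.

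The 8 genes, the list of 55 other iron genes and the rules were chosen with earlier results of these data known. The rule for named items took all 8 genes, their bins, every listed iron gene, listed neighbours, and the 3 listed introns nearest in the 3 retained shares to each member intron. FRO7 was also set beside FRO6, and the unlisted introns of ORG1 and FRO6 were examined, after values were seen. Alternatives were stricter limits on the adjusted p, the log2 change and the change of the fraction.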

Additional observations from a re-analysis of the deposited data

How the results depend on the processing

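With an adjusted p below 0.01, the counts of listed genes did not change: 4 of the 8 genes in picln-1, 1 in prmt5-5, and 2 and 3 of the 55 other iron genes. With a log2 change of at least 1, 1 of the 8 genes (FRO4) remained in picln-1 and 0 in prmt5-5, and 0 of the other iron genes remained in picln-1 and 2 in prmt5-5. So BHLH38, BHLH100, BHLH101 and FRO6 are listed through changes below 2-fold. With an adjusted p below 0.05 the member bins stayed at 5 in picln-1 and 7 in prmt5-5. With a change of the fraction above 0.1 they numbered 4 in picln-1 and 4 in prmt5-5, since introns 1, 2 and 3 of ORG1 lie between both limits in prmt5-5. No paired analysis was possible because the files hold no values per library, and for the same reason the refits that leave out a replicate were not run. Depth is unknown for every retained share, and the implied errors of the FRO6 introns are the widest among the member bins.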

Other observations

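The listed introns nearest to each member intron were sought by their retained shares, in all 3 genotypes. Over the 485 listed intron bins of picln-1 and the 3232 of prmt5-5, likeness was measured as the Euclidean distance between the 3 retained shares, in percentage points. In the picln-1 table, ORG1 intron 7 lay nearest to introns of AT1G49180 (1.65 points), AT3G63510 (2.0) and ANL2 (2.20). ORG1 intron 6 lay nearest to AT3G55080 (1.47), AT5G13980 (2.17) and MAK10 (2.71) there. For ORG1 intron 3 the nearest in picln-1 were HO2 (1.14 points), AT5G18230 (1.46) and SPL9 (2.24), and for intron 1 AT5G26600 (1.43), AT5G18230 (2.26) and AT5G42760 (2.35), which were also the nearest to intron 1 in prmt5-5. BHLH101 intron 2 lay nearest to CDI (0.565 points), EMB3114 (0.782) and ACLA-2 (1.06).

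In the prmt5-5 table FRO6 intron 6 lay nearest to introns of PUR7 (0.435 points), FIP1[V] (1.39) and AT1G72420 (1.88). FRO6 intron 5 lay nearest to MEE59 (0.455), AT1G14230 (1.18) and AT3G01860 (1.86). ORG1 intron 2 was within 0.374 points of introns of ATGRIP, AT5G11710 and AT1G73110. ORG1 intron 7 lay nearest to AT1G49180 (1.65), AT3G47000 (1.82) and SNL2 (1.90), intron 6 to AT3G11290 (1.08), AT1G08910 (1.38) and AT1G45010 (1.46), and intron 3 to AT5G18230 (1.46), CIP1 (2.25) and HHP3 (2.98). No member was in both gene tables, so no gene was sought by a pair of expression changes.

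Annotated neighbours of the 8 genes that no gene table lists had listed bins in some cases. GLU1, next to BHLH101, EDA7, next to BHLH39, and FRO7 each had 1 in prmt5-5, and AT5G53440, 489 bases upstream of ORG1, had 1 in picln-1.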
